A study of Mus musculus with 14 samples.

Results

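The genes described are 39 fibroblast collagens, matrix proteins, matrix-processing enzymes and fibroblast surface or cytoskeletal genes, chosen by symbol. Of these, 38 were among the 20207 genes of each RNA file, and all 38 were among the 11090 genes tested. Col6a3, a chain of type VI collagen, was not analysed here. RNA came from embryo fibroblasts (MEFs) of 129/Sv mice, grown in DMEM with fetal calf serum. The groups were p53-/- cells (p53-null below) given doxorubicin at 0.2 µg/ml for 6 h with 2 libraries, untreated p53-null cells with 2 libraries, wild-type cells given the same doxorubicin with 3 libraries, and untreated wild-type cells with 3 libraries. Doxorubicin is a topoisomerase II poison that breaks DNA and activates p53. Reads come from the 3′ ends of poly(A) RNA, and levels are in CPM, the reads of a gene per fixed number of scaled reads of its library. The replicates are numbered in the labels, which do not call them separate cultures. The p-values therefore reflect only how these libraries vary, which may be technical.

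Fibroblasts build the extracellular matrix of connective tissue. Collagen chains are hydroxylated and folded in the endoplasmic reticulum, secreted as procollagen, trimmed, assembled into fibrils and crosslinked by lysyl oxidases. Fibronectin, fibulins, fibrillin and elastin form further networks, while matricellular proteins such as tenascin C and periostin modulate how cells contact them.

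Depth went with genotype, at 18099506 to 25970157 reads in p53-null libraries and 9768153 to 11770448 reads in wild-type libraries. The 38 genes held 2.42% to 2.78% of reads in p53-null libraries and 2.11% to 3.55% in wild-type libraries. Trp53, which encodes p53, had 29.9 and 45.6 CPM in treated and 67.8 and 75.6 CPM in untreated p53-null libraries, against 28.8, 23.7 and 43.4 CPM in treated and 24.1, 25.5 and 19.9 CPM in untreated wild-type libraries. The labels do not say which part of the gene is disrupted, and 3′ reads check nothing about a deletion elsewhere in it. Fibroblast markers summed to 3614 to 4874 CPM in p53-null libraries and 2757 to 6562 CPM in wild-type libraries. Of the 11 fibroblast markers, 6 belong to the matrix set. Of the others, Pdgfrb had 38.99 to 211 CPM, Prrx1 11.9 to 84.8 CPM and Twist2 4.24 to 28.4 CPM over all libraries, while Pdgfra stayed at or under 4.21 CPM and Fap at or under 1.20 CPM. Endothelial markers summed to at most 4.59 CPM in any library. Wild-type libraries numbered 1 stood apart from those numbered 2 and 3, in both treatments. Cartilage and bone markers, mostly Col2a1, summed to 346 CPM in treated and 360 CPM in untreated wild-type library 1, against 45.6 to 82.4 CPM in the other wild-type libraries. Blood and macrophage markers summed to 29.1 and 58.9 CPM there, against 116 to 293 CPM.

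**Figure D1:**
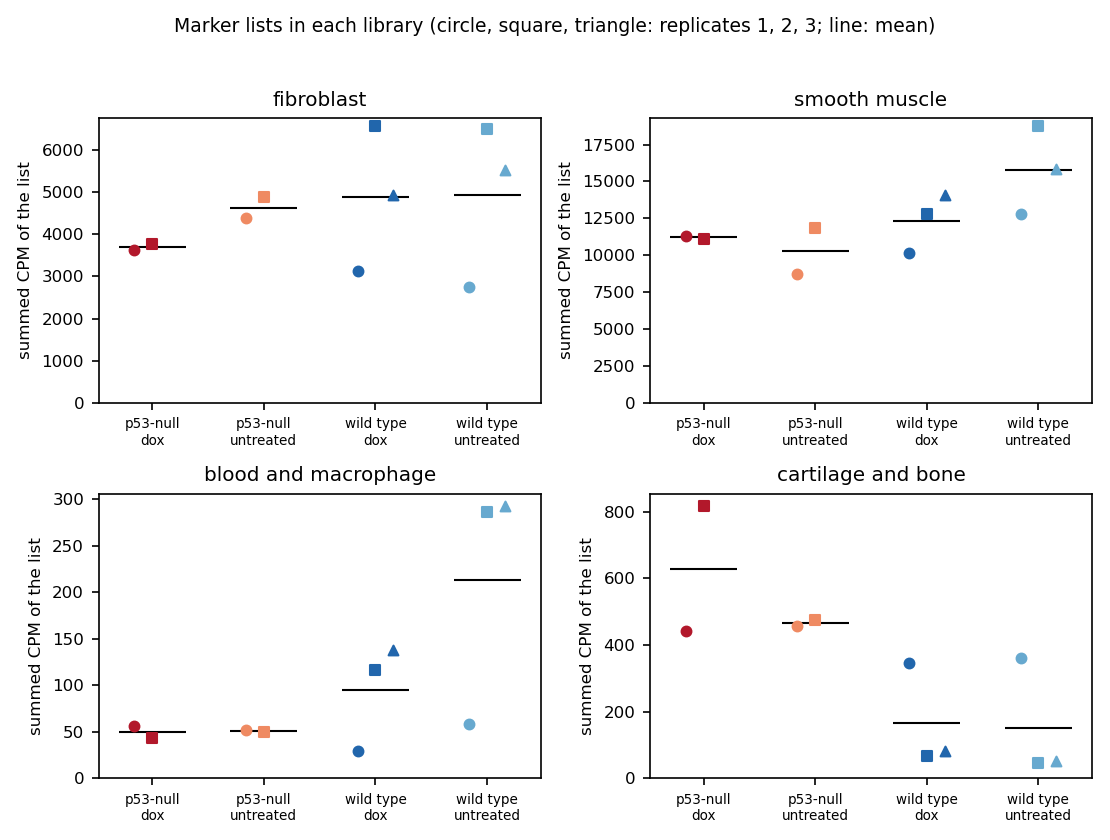
Summed CPM (y axes, linear) of 4 marker lists in each of 10 libraries, with p53-null groups left of wild-type groups; shapes mark the replicate number and lines the group mean. Cartilage and bone markers reach 442 to 816 CPM in p53-null libraries and 346 and 360 CPM in wild-type libraries numbered 1, above the other wild-type libraries.

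The untreated genotypes differed in 16 of the 38 matrix genes. In untreated p53-null cells 11 genes were higher and 5 lower than in untreated wild-type cells, and 22 did not pass the limma test at an adjusted p of 0.05. Fibronectin, periostin, tenascin C, 3 fibulins, the lysyl oxidase Lox and 4 of 5 fibrillar collagen chains were higher. Lower were S100a4, elastin, the lysyl oxidase-like enzymes Loxl1 and Loxl3, and the collagen chaperone Serpinh1. Over all tested genes the same comparison called 32.5%, with 19.8% higher and 12.7% lower, while 42.1% of the matrix genes were called. The median log2 difference of the matrix genes was 0.12, against 0.07 over all tested genes, and genes of the set lay on both sides. Libraries of the untreated p53-null group lay above those of the untreated wild-type group without overlap for 16 genes, or 42.1%, against 35.4% of all tested genes. They lay below for 11 genes, or 28.9%, against 28.8%.

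Fibrillar collagens form the fibrils that give tissue its strength. Col5a2, a chain of the type V collagen that limits fibril diameter, had 123 and 137 CPM in untreated p53-null libraries, against 52.5, 47.9 and 35.8 CPM in untreated wild-type libraries. Every untreated p53-null library was above every untreated wild-type one, and the log2 difference was 1.52 (SE 0.34, adjusted p = 0.0108). Col1a2, a chain of type I collagen, averaged 617 ± 4.33 CPM in untreated p53-null (SD, n = 2) and 332 ± 60.5 CPM in untreated wild-type libraries (SD, n = 3), a log2 difference of 0.91 (SE 0.29, adjusted p = 0.0372). Type III collagen, Col3a1, was also higher by 0.91 on the log2 scale (SE 0.27, adjusted p = 0.0306), and the type V chain Col5a1 by 0.73 (SE 0.25, adjusted p = 0.0487). For these 3 chains too the groups did not overlap. With upper quartile scaling, however, all 3 missed the threshold, at limma adjusted p of 0.0530 for Col1a2, 0.0872 for Col3a1 and 0.1215 for Col5a1. With median-of-ratios scaling Col1a2 and Col5a1 missed it (0.0533 and 0.0724). Without both wild-type libraries numbered 1 all 3 missed it, at 0.05385, 0.0664 and 0.110. Col1a1, which pairs with Col1a2 in type I collagen, had 2167 and 2502 CPM in untreated p53-null and 859, 2201 and 2176 CPM in untreated wild-type libraries. Its groups overlapped, with wild-type library 1 far below the rest, and its difference of 0.54 (SE 0.42) did not pass. With replicate number as a block, a fit that called 49.2% of all tested genes, its limma adjusted p was 0.0376.

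None of the 6 measured network, microfibrillar or associated collagen chains passed. Col6a2, a type VI chain that forms beaded microfibrils, had 124 and 193 CPM in untreated p53-null libraries, against 326, 483 and 484 CPM in untreated wild-type libraries. The groups did not overlap, but the log2 difference of -1.45 (SE 0.59) had an adjusted p of 0.0834, and that p was 0.0103 without treated wild-type library 2 and 0.0284 without treated wild-type library 3. Its partner Col6a1 had a difference of 0.14 (SE 0.21), and Col12a1, a fibril-associated chain, one of 0.07 (SE 0.30). The basement membrane chains Col4a1 and Col4a2 had differences of 0.67 (SE 0.30) and -0.92 (SE 0.39), of opposite sign. Col8a1, a short-chain network collagen, had one of -1.14 (SE 0.53). The fit with replicate number as a block called 4 of these 6 chains, but also 49.2% of all tested genes. Its limma adjusted p was 0.0088 for Col4a1, 0.0057 for Col4a2, 0.0284 for Col8a1 and 0.0441 for Col6a2. The error of that fit leaves out how replicates of different numbers vary.

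Promoter windows were available for 24 of the 38 genes in RefSeq (build GRCm38.p6), each spanning 250 bases before to 50 after the annotated start. Windows are shown for 3 fibrillar chains that were higher and for S100a4, which had the largest decrease. That of Col4a2, which did not pass, is shown because it overlaps the window of Col4a1. Capitals mark the CCAAT box, the GC box GGGCGG and the TATA box TATAAA, on either strand. Col1a2 lies at chr6:4505368-4505667, Col3a1 at chr1:45311288-45311587, Col5a1 at chr2:27886175-27886474, Col4a2 at chr8:11312555-11312854 and S100a4 at chr3:90603520-90603819, all on the plus strand.
Col1a2: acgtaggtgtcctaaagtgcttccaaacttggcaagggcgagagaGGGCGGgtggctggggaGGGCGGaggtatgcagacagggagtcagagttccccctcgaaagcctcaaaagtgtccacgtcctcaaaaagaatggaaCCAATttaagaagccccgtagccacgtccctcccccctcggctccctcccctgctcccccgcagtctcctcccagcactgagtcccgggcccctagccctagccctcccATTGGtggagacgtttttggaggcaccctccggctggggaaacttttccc
Col3a1: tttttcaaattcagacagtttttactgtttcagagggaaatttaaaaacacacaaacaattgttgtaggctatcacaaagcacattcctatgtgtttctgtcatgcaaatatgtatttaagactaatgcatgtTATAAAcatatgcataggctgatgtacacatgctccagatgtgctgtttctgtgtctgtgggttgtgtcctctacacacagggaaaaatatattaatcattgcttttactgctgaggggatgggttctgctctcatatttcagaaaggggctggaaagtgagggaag
Col5a1: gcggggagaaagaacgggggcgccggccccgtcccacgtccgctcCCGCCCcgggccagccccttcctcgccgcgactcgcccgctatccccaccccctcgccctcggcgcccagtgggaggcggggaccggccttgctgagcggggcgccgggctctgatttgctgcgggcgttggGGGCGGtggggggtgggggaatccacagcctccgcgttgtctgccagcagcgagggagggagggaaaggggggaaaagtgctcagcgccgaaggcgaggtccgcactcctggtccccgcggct
Col4a2: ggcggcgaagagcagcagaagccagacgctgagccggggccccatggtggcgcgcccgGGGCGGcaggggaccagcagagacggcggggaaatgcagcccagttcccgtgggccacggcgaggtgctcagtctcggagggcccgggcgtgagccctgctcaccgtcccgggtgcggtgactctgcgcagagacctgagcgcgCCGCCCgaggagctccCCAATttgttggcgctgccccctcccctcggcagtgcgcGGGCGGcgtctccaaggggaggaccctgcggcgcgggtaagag
S100a4: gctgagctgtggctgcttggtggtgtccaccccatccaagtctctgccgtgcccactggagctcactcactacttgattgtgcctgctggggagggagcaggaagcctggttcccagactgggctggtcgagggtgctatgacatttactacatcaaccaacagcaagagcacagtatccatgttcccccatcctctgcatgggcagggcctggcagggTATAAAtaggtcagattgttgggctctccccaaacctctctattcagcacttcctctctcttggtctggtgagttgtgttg
The Col1a2 window holds CCAAT on both strands and GGGCGG at 205 and 188 bases before the start, and Col5a1 holds GGGCGG at 205 and 73 bases before it. Col3a1, with 37.7% GC, holds neither of them, and has TATAAA with its first base 117 bases before the start. S100a4 has TATAAA 31 bases before the start. The window of Col4a2 holds GGGCGG at 192 and 48 bases before the start and 7 bases after it, and CCAAT at 32 bases before it. The Col4a2 window overlaps that of Col4a1 by 78 bases, since their starts lie 21 bases apart on opposite strands, at chr8:11312805 on the plus strand and chr8:11312826 on the minus strand. Over all 24 genes GGGCGG was found in 17, TATAAA in 8, CCAAT in 7 and the AP-1 motif TGANTCA in 1. Both strands and all positions were searched with overlaps allowed, and whether a match acts as a box was not tested. Among 27025 genes with a window, GGGCGG occurred in 38.2%, TATAAA in 15.7%, CCAAT in 41.1% and the AP-1 motif in 8.97%. The median GC content was 60.7% over the 24 genes and 52.7% over all windows. The p53 response element without a spacer was found in 0 of the 24 windows, against 0.0111% of all genes. A single decamer of that element was found in 1, that of Sparc, against 9.55% of all genes.

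Among glycoproteins and elastic fibre genes, 4 of 6 were higher and 1 was lower in untreated p53-null cells. Fn1 encodes fibronectin, which links cells through integrins to collagen. It had 694 and 693 CPM in untreated p53-null libraries, against 240, 173 and 144 CPM in untreated wild-type libraries. The p53-null libraries were nearly equal and far above every wild-type one, with a log2 difference of 1.93 (SE 0.30, adjusted p = 0.00318). Eln, which encodes elastin, went the other way with 424 and 436 CPM in untreated p53-null libraries, against 1729, 911 and 1308 CPM in untreated wild-type libraries. These groups did not overlap either, and the difference was -1.56 (SE 0.28, adjusted p = 0.0055). The fibulins, which bind elastic fibres and basement membranes, were higher by 1.66 for Fbln1 (SE 0.45, adjusted p = 0.0213), 1.09 for Fbln2 (SE 0.31, adjusted p = 0.0253) and 1.26 for Fbln5 (SE 0.39, adjusted p = 0.0339). With upper quartile scaling Fbln2 and Fbln5 missed the threshold, at limma adjusted p of 0.0576 and 0.0557. Fbln5 also missed it with no filter on low values (0.05105). Fbn1, fibrillin 1 of the microfibrils, had a difference of -1.19 (SE 0.44) that did not pass.

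Of the 4 matricellular genes, 2 were higher. Tnc encodes tenascin C, a glycoprotein of embryonic and healing tissue, and had 174 and 169 CPM in untreated p53-null libraries, against 86.5, 76.3 and 59.6 CPM in untreated wild-type libraries. The groups lay well apart, with a log2 difference of 1.22 (SE 0.25, adjusted p = 0.0087). Postn encodes periostin, which binds collagen and integrins, and had 87.5 and 90.1 CPM in untreated p53-null libraries, against 34.9, 20.9 and 16.4 CPM in untreated wild-type libraries. Again no libraries overlapped, and the difference was 1.93 (SE 0.44, adjusted p = 0.0121). Thbs2, thrombospondin 2, and Sparc, a collagen-binding glycoprotein, had differences of 0.44 (SE 0.30) and -0.17 (SE 0.34) that did not pass. None of the 3 small leucine-rich proteoglycans passed. Lum, Dcn and Bgn had differences of 0.61 (SE 0.32), 0.07 (SE 0.71) and -0.50 (SE 0.38), and Lum was at or under 1.66 CPM in every library.

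The lysyl oxidases, copper enzymes that start the crosslinking of collagen and elastin, split by member. Lox had 69.0 and 76.9 CPM in untreated p53-null libraries, against 34.2, 16.03 and 9.90 CPM in untreated wild-type libraries, and was higher by 2.02 (SE 0.61, adjusted p = 0.0317). With no filter on low values Lox missed the threshold (limma adjusted p = 0.0582). Loxl3 had 94.0 and 97.5 CPM in untreated p53-null libraries, against 238, 372 and 334 CPM in untreated wild-type libraries. Loxl1, known for its part in elastic fibre upkeep, had 365 and 434 CPM in untreated p53-null libraries, against 692, 889 and 965 CPM in untreated wild-type libraries. In none of these 3 did the groups overlap, and the log2 differences of the lower pair were -1.69 for Loxl3 (SE 0.25, adjusted p = 0.0026) and -1.08 for Loxl1 (SE 0.20, adjusted p = 0.0068). Loxl2 had a difference of 0.38 (SE 0.38).

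Of the 5 hydroxylase and chaperone genes only Serpinh1 passed. It encodes HSP47, the endoplasmic reticulum chaperone of procollagen, and was lower in untreated p53-null cells by a log2 difference of -0.96 (SE 0.30, adjusted p = 0.0371). Serpinh1 missed the threshold with library size alone as scaling, at -0.56 (limma adjusted p = 0.189), and with no filter on low values (0.0633). The lysyl hydroxylase Plod2 had a difference of 1.25 (SE 0.50) and the prolyl hydroxylase subunit P4ha2 one of -1.04 (SE 0.39), and neither passed. Plod1 and P4ha1 lay closer to 0, at -0.08 (SE 0.29) and -0.38 (SE 0.52). S100a4, a calcium-binding protein used as a fibroblast marker, had 522 and 551 CPM in untreated p53-null libraries, against 3559, 3350 and 3472 CPM in untreated wild-type libraries. Both groups were tight and far apart, and its log2 difference of -2.69 (SE 0.29, adjusted p = 0.00054) had the smallest adjusted p of the 38. The other surface and cytoskeletal genes did not pass. Thy1 and the integrin subunit Itgb1 had differences of -1.08 (SE 0.44) and -0.89 (SE 0.33), while the intermediate filament gene Vim had 0.11 (SE 0.26) and the cadherin gene Cdh11 had 0.35 (SE 0.26).

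The count of untreated differences rested on few libraries. Without untreated p53-null library 1 it was 1 higher and 2 lower, and without untreated p53-null library 2 it was 1 higher and 3 lower, with that group then a single library assumed to vary like the others. Without untreated wild-type library 1, 10 genes were lower, without library 2, 7 were higher, and without library 3, 4 were higher. Leaving out treated wild-type library 2 gave 10 lower and treated wild-type library 3 gave 8 lower, although that group is not compared here. Of the 16 calls, those of Fn1, Loxl3 and S100a4 held without each of the 10 libraries in turn. Without both wild-type libraries numbered 1 there were 7 higher and 10 lower, and without both p53-null libraries numbered 2 there was 1 of each, Fn1 and S100a4. Adding replicate number as a block gave 14 higher and 12 lower genes, and none of the 16 calls was lost. Those added were Col1a1, Col4a1 and Plod2 on the higher side, at adjusted p of 0.0088 to 0.0376, and Col6a2, Col4a2, Col8a1, Fbn1, P4ha2, Thy1 and Itgb1 on the lower side, at adjusted p of 0.0021 to 0.0441. That block removes differences between replicate numbers within a genotype, so its error leaves out how replicates of different numbers vary. The labels do not say whether the numbers are cultures. The block called 49.2% of all tested genes, 27.7% higher and 21.6% lower.

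Some cell type markers also differed between the untreated genotypes, where 32.5% of all tested genes were called. Of the tested markers, 18.2% passed in the fibroblast list, 14.3% in the smooth muscle list and 25% in the neural list. In the cartilage and skeletal muscle lists 50% passed. Of the 11 fibroblast markers Pdgfra and Col1a2 were higher, with a log2 difference of 0.92 for Pdgfra, while Col1a2 is itself in the matrix set. Of the cartilage and bone list, 4 of 7 genes were tested and 2 of them, Sox9 and Runx2, were higher. The list summed to 458 and 476 CPM in untreated p53-null libraries, against 360, 45.6 and 50.7 CPM in untreated wild-type libraries, with Matn1 and Sp7 at or near 0 in all of them. Blood and macrophage markers summed to 51.6 and 49.4 CPM in untreated p53-null libraries, against 58.9, 286 and 293 CPM in untreated wild-type libraries. None of the 8 tested passed, and Ptprc was at or under 0.362 CPM throughout. Smooth muscle markers summed to 8698 and 11880 CPM in untreated p53-null libraries, against 12820, 18790 and 15820 CPM in untreated wild-type libraries, with Actg2 the gene of 7 that passed, lower at a log2 difference of -1.11. Of 4 skeletal muscle markers tested, Myf5 and Chrna1 were higher, at 2.01 and 1.97, at levels up to 4.58 CPM. The other 2 were fitted below 0. The list, mostly Acta1, summed to 25.3 and 21.3 CPM in untreated p53-null libraries, against 30.7, 78.15 and 37.9 CPM in untreated wild-type libraries. Of 4 neural and glial markers tested, Sox10 was lower, at -2.48, with at most 3.89 CPM. The part of these markers in the matrix gene differences was not tested. In bulk RNA, fewer cells of a type and less RNA per cell cannot be told apart.

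**Figure D2:**
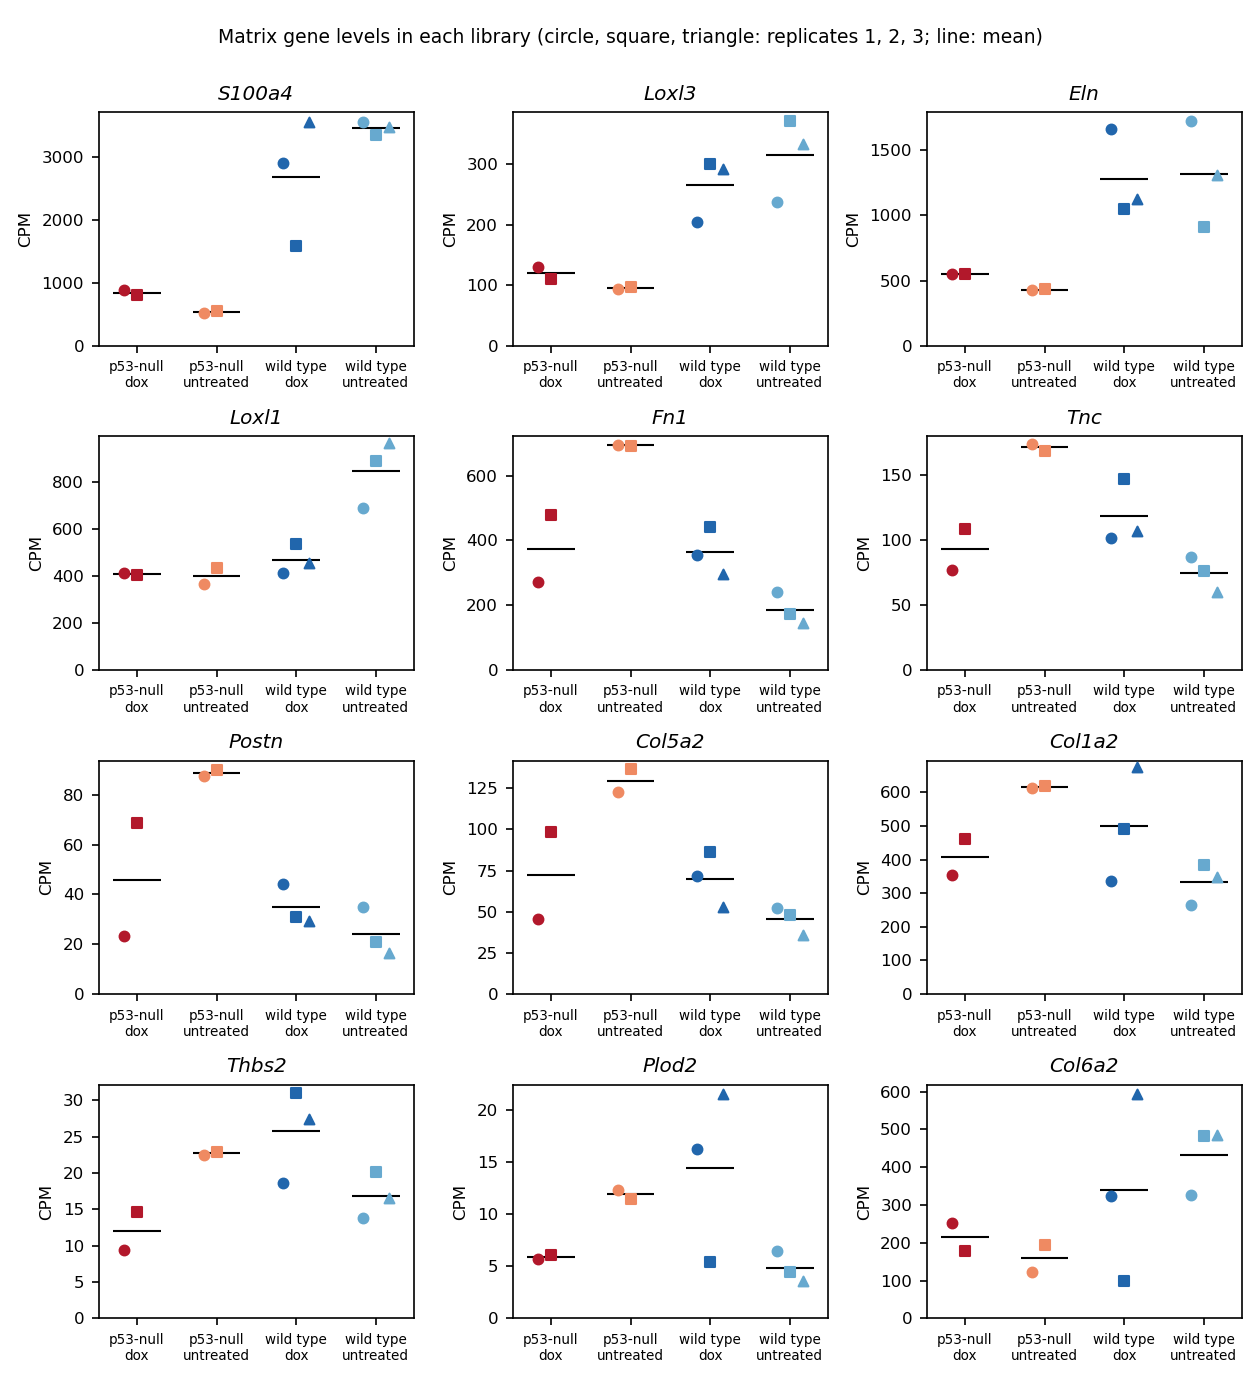
CPM (y axes, linear from 0) of 12 matrix genes in each of 10 libraries, with p53-null groups left of wild-type groups and treated left of untreated; shapes mark the replicate number and lines the group mean. S100a4, Loxl3 and Eln are low in all p53-null libraries, whereas Fn1, Tnc, Postn and Col5a2 are highest in the untreated p53-null libraries.

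Under doxorubicin the genotypes differed in 4 of the 38 genes, all lower in p53-null cells. No gene was higher, and 34 did not pass. Over all tested genes 12.1% were called, 5.64% higher and 6.46% lower. The median log2 difference was -0.23 over the matrix genes and 0.06 over all tested genes. Libraries of the 2 groups did not overlap for 1 gene higher in p53-null cells, or 2.63%, against 23.3% of all tested genes, and for 5 genes lower, or 13.2%, against 18.8%. Of the markers of other cell types, Runx2, Myf5 and Kdr were higher in treated p53-null cells, with log2 differences of 1.23, 1.88 and 1.75. Actg2 was lower, at -1.09. Kdr, at or under 3.97 CPM, was the 1 endothelial marker of 8 that was tested. Of 4 skeletal muscle markers tested, 2 were fitted above 0 and 2 below. All 4 cartilage and bone markers tested were fitted above 0, and 6 of 7 smooth muscle ones below. The part of these markers was not tested, and none of the 11 listed fibroblast markers passed here.

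S100a4 had 877 and 805 CPM in treated p53-null libraries, against 2903, 1580 and 3548 CPM in treated wild-type libraries. The groups stayed apart although wild-type library 2 came closest, and the difference was -1.59 (SE 0.29, adjusted p = 0.0064). Loxl3 had 130 and 111 CPM in treated p53-null libraries, against 205, 300 and 291 CPM in treated wild-type libraries, a difference of -1.12 (SE 0.25, adjusted p = 0.0157). Eln had 551 and 548 CPM in treated p53-null libraries, against 1666, 1052 and 1123 CPM in treated wild-type libraries, a difference of -1.19 (SE 0.28, adjusted p = 0.0224). Neither gene's groups overlapped. Thbs2, an inhibitor of blood vessel growth, had 9.41 and 14.7 CPM in treated p53-null libraries, against 18.7, 31.1 and 27.5 CPM in treated wild-type libraries. It too showed no overlap, with a difference of -1.06 (SE 0.30, adjusted p = 0.0482).

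S100a4, Loxl3 and Eln were called in both treatments and in the same direction. They were 18.8% of the untreated calls and 75% of the treated calls. None of the 11 genes that were higher in untreated p53-null cells passed in treated ones, while 17.9% of the 2191 tested genes that were higher untreated were also higher treated. The treated log2 differences of the 11 ran from -0.35 for Col3a1 to 0.50 for Fbln2 (SE 0.31). Fbln2 had 1256 and 1336 CPM in treated p53-null libraries, against 946, 1102 and 742 CPM in treated wild-type libraries, and was the gene of the set that was higher without overlap. Fn1, for example, had 271 and 478 CPM in treated p53-null libraries and 356, 440 and 295 CPM in treated wild-type libraries. These groups overlapped, and the fitted difference was 0.00 (SE 0.30). Plod2 had the largest difference that did not pass, at -1.03 (SE 0.50), with 5.69 and 6.05 CPM in treated p53-null and 16.2, 5.44 and 21.5 CPM in treated wild-type libraries. Only wild-type library 2 kept its groups from separating, and without it the difference was -1.59 and passed (adjusted p = 0.0149).

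The treated comparison was again sensitive to single libraries. Without treated p53-null library 1, 1 gene was called, and without treated p53-null library 2, none was. None of the 4 calls held without each library in turn: the adjusted p of S100a4 was 0.0842 without treated p53-null library 2, and that of Eln 0.0533 without treated wild-type library 1. The adjusted p of Loxl3 was 0.0582 and 0.164 without treated p53-null libraries 1 and 2, and that of Eln 0.101 and 0.166. Thbs2 did not pass without any one of 8 libraries, at adjusted p of 0.0621 to 0.248, nor with library size alone as scaling, no filter on low values or only the groups compared (adjusted p of 0.119, 0.0647 and 0.145). All 4 calls held without both wild-type libraries numbered 1. The block, which called 27.2% of all tested genes, 14.4% higher and 12.8% lower, added Thy1 on the lower side.

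**Figure D3:**
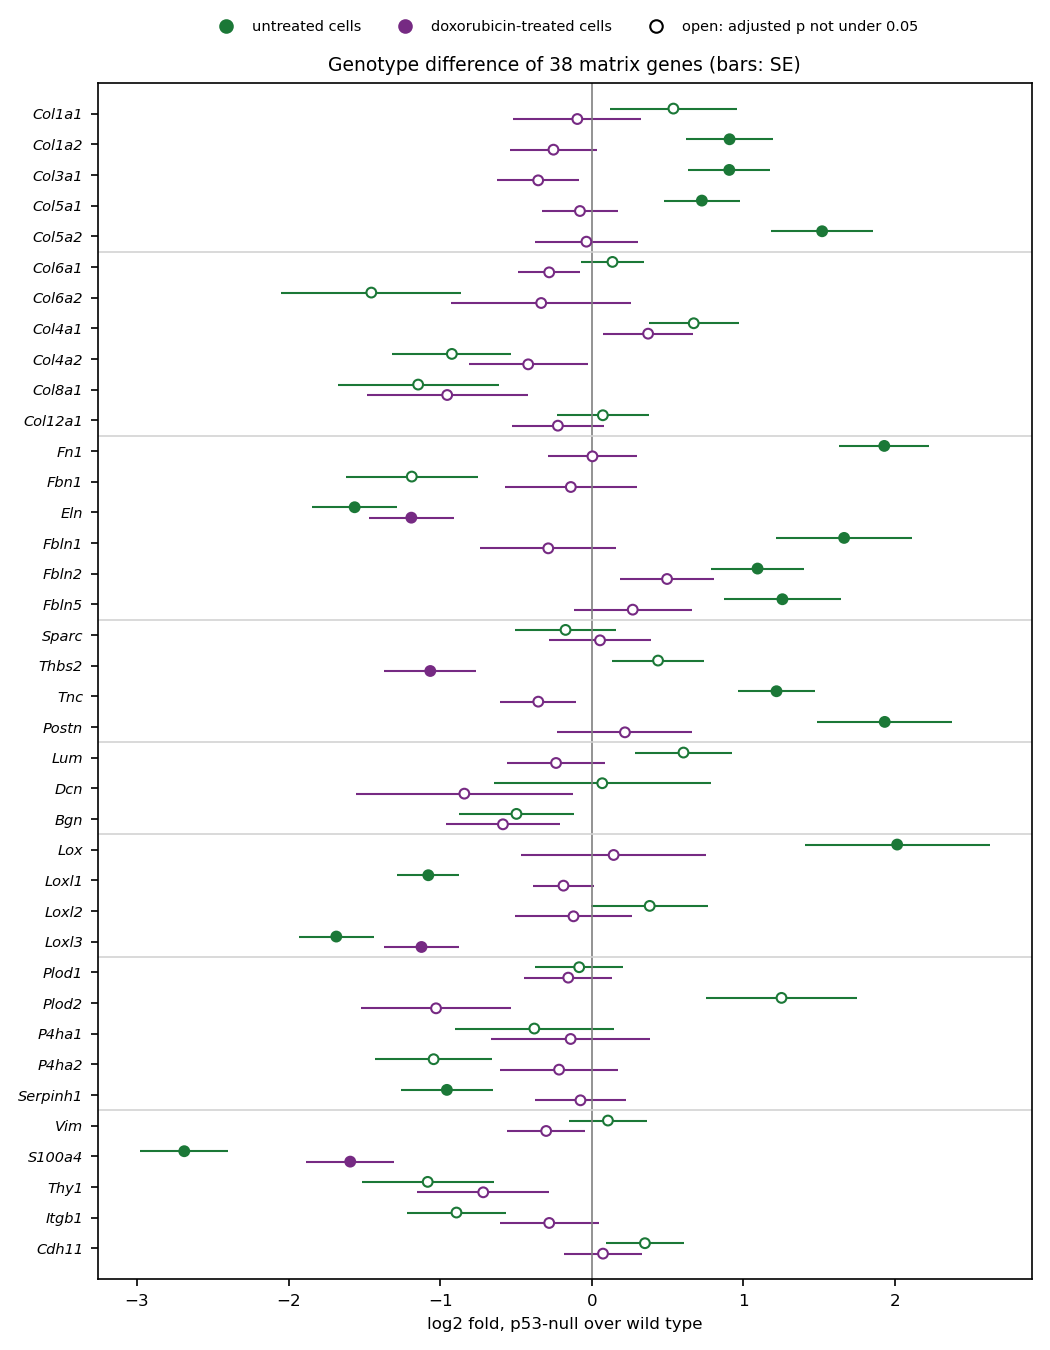
Log2 difference between p53-null and wild-type cells (x axis; points, with bars of 1 SE) for 38 matrix genes grouped by role, in untreated and in treated cells; filled points passed the limma test. All filled points to the right of 0 are in untreated cells and their treated counterparts, none filled, lie between -0.35 and 0.50, while S100a4, Loxl3 and Eln lie left of 0 in both.

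In wild-type cells doxorubicin raised 1 of the 38 genes and lowered 1. Over all tested genes 12.6% were called, 7.97% higher and 4.64% lower, whereas 5.26% of the matrix genes were. Fn1 had 356, 440 and 295 CPM in treated libraries, against 240, 173 and 144 CPM in untreated libraries. All treated libraries were above all untreated ones, with a log2 change of 0.98 (SE 0.27, adjusted p = 0.0381). Loxl1 had 413, 535 and 455 CPM in treated libraries, against 692, 889 and 965 CPM in untreated libraries. No libraries overlapped here either, and the change was -0.85 (SE 0.18, adjusted p = 0.0142). Of the 11 fibroblast markers, 4 fell in the same comparison, none of them a matrix gene of the set. The receptor gene Pdgfrb had 40.4, 66.7 and 38.99 CPM in treated libraries, against 78.2, 211 and 148 CPM in untreated libraries, a change of -1.50 (SE 0.35, adjusted p = 0.0194). Twist2, Prrx1 and Pdgfra had changes of -1.71, -1.22 and -0.84. Of 7 smooth muscle markers Myh11 fell, with a change of -1.82. Their part in the matrix gene changes was not tested.

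The median change of the matrix genes in wild-type cells was 0.06, against 0.04 over all tested genes. Plod2, whose product hydroxylates collagen telopeptide lysines, had the largest change that did not pass, with 16.2, 5.44 and 21.5 CPM in treated and 6.49, 4.44 and 3.56 CPM in untreated libraries. Its groups overlapped through treated library 2, at a change of 1.32 (SE 0.44, adjusted p = 0.0840). Besides Fn1, treated libraries lay above untreated ones without overlap for Col3a1, Col5a2 and Tnc, that is for 4 of 38 genes or 10.5%, against 16.9% of all tested genes. Besides Loxl1 they lay below for Cdh11, that is for 2 genes or 5.26%, against 12.2%.

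Wild-type libraries of the same number deviated together, and with the number as a block 4 genes were higher and 1 lower. The block called 23.2% of all tested genes, 13.4% higher and 9.77% lower. The added genes were Fbln1, with a change of 1.21 (adjusted p = 0.0219), Plod2 (adjusted p = 0.0371) and Tnc, with a change of 0.67 (adjusted p = 0.0413). Fn1 missed the threshold without any one of treated libraries 1 and 2, untreated libraries 2 and 3, or the untreated p53-null libraries, at adjusted p of 0.0642 to 0.145, and also without both wild-type libraries numbered 1, at 0.0683. It missed it with upper quartile scaling (adjusted p = 0.0952), no filter on low values (0.0733) or only the groups compared (0.0671). Loxl1 missed it without treated library 1 (adjusted p = 0.0518), untreated library 2 (adjusted p = 0.0607) or untreated library 3 (adjusted p = 0.0713).

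In p53-null cells none of the 38 genes passed after doxorubicin, and 0% of all tested genes did. The smallest adjusted p over all genes by limma was 0.352. With no adjustment, 1246 genes or 11.2% of all tested genes had a limma p under 0.05, as had 7 of the 38 matrix genes. Those 7 had lower values after treatment, and the directions were not counted over all tested genes. By limma-voom none was called either. The median change was -0.34 over the matrix genes and -0.04 over all tested genes. Treated libraries lay below untreated ones without overlap for 16 of 38 genes, or 42.1%, against 25.6% of all tested genes, and above them for 9 genes, or 23.7%, against 27.1%.

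The genes without overlap on the lower side included all 5 fibrillar collagen chains, whose changes ran from -0.94 for Col5a2 to -0.50 for Col1a1. Fn1 had 271 and 478 CPM in treated p53-null libraries, against 694 and 693 CPM in untreated ones, a change of -0.95 (SE 0.32, adjusted p = 0.365). Tnc had 77.0 and 108 CPM in treated p53-null libraries, against 174 and 169 CPM in untreated ones, a change of -0.90 (SE 0.27, adjusted p = 0.355). In both genes the treated libraries were lower and treated library 1 the lowest. Postn had the largest change of the set, -1.14 (SE 0.49, adjusted p = 0.423), with 23.3 and 68.5 CPM in treated p53-null libraries, against 87.5 and 90.1 CPM in untreated ones. Treated library 1 again differed most, and the change was -0.37 without it. On the higher side were S100a4, Eln, Loxl3, Fbn1, P4ha2, Serpinh1, Thy1, Itgb1 and Col4a2, with changes of 0.25 to 0.65.

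**Figure D4:**
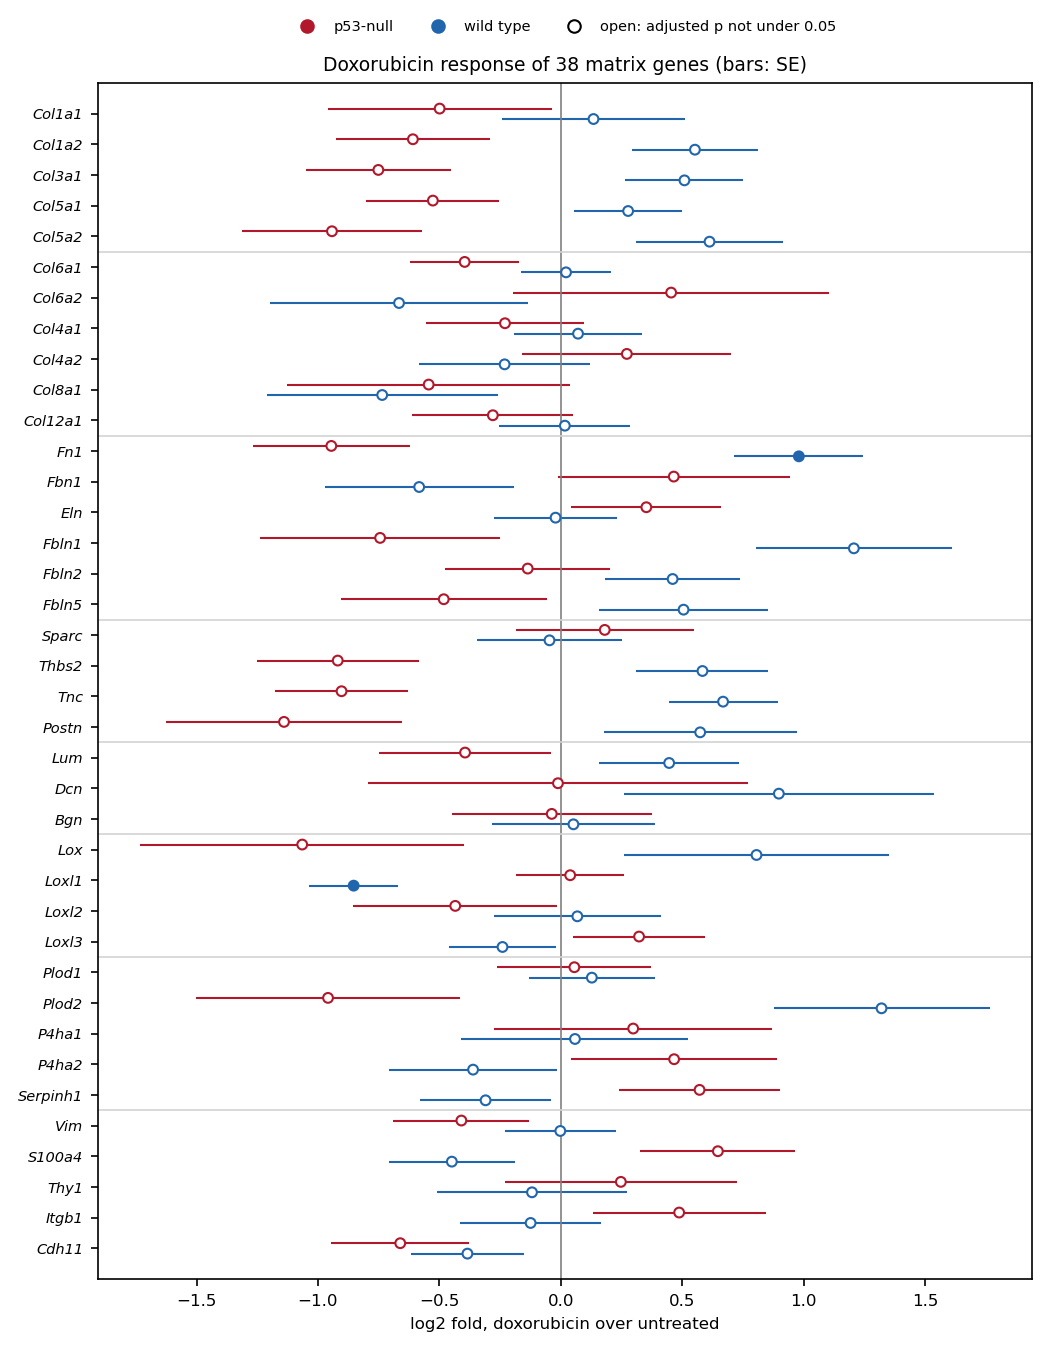
Log2 change with doxorubicin (x axis; points, with bars of 1 SE) of 38 matrix genes grouped by role, in p53-null and in wild-type cells; filled points passed the limma test. Fn1 and Loxl1 in wild type are the filled points. For fibrillar collagens, Fn1, Thbs2, Tnc and Postn the p53-null point lies left of 0 and the wild-type point right of it. The same holds for further genes of other roles, such as Fbln1, Lox, Plod2 and Col4a1.

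Whether the responses differ was tested directly, as the p53-null response minus the wild-type response. Fn1 was the 1 gene of the 38 that passed, and 2.26% of all tested genes did, 0.541% higher and 1.72% lower. Its change was -0.95 in p53-null cells and 0.98 in wild-type cells, a difference of -1.93 (SE 0.42, adjusted p = 0.0466). Tnc came next at -1.57 (SE 0.35, adjusted p = 0.0524), with changes of -0.90 in p53-null and 0.67 in wild-type cells. Plod2 had the largest difference, -2.28 (SE 0.70, adjusted p = 0.116), which passed without treated wild-type library 2 (adjusted p = 0.0176). The median difference was -0.35 over the matrix genes and -0.09 over all tested genes.

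All 5 fibrillar chains had a change below 0 in p53-null cells and above 0 in wild-type cells, and none of these differences passed. They ran from -1.56 for Col5a2 (SE 0.48) to -0.63 for Col1a1 (SE 0.60). Changes of the same signs were found in further genes of other roles, such as Fbln1, Lox, Plod2 and Col4a1. The share of all tested genes with these signs was not counted. With the replicate block 9 genes were lower, Fn1, Tnc, Thbs2, Postn, Fbln1, Plod2, Col1a2, Col3a1 and Col5a2, while 9.41% of all tested genes were called, 3.6% higher and 5.82% lower. Whether the numbers pair the p53-null libraries could not be decided from 2 pairs. The Fn1 call was lost without any one of 8 libraries, each but untreated wild-type library 1 and treated wild-type library 3, at adjusted p of 0.0568 to 0.222. It was also lost without both wild-type libraries numbered 1 (adjusted p = 0.0624), with upper quartile scaling (0.106), with no filter on low values (0.0805) and on the deposited values (0.0540).

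**Figure D5:**
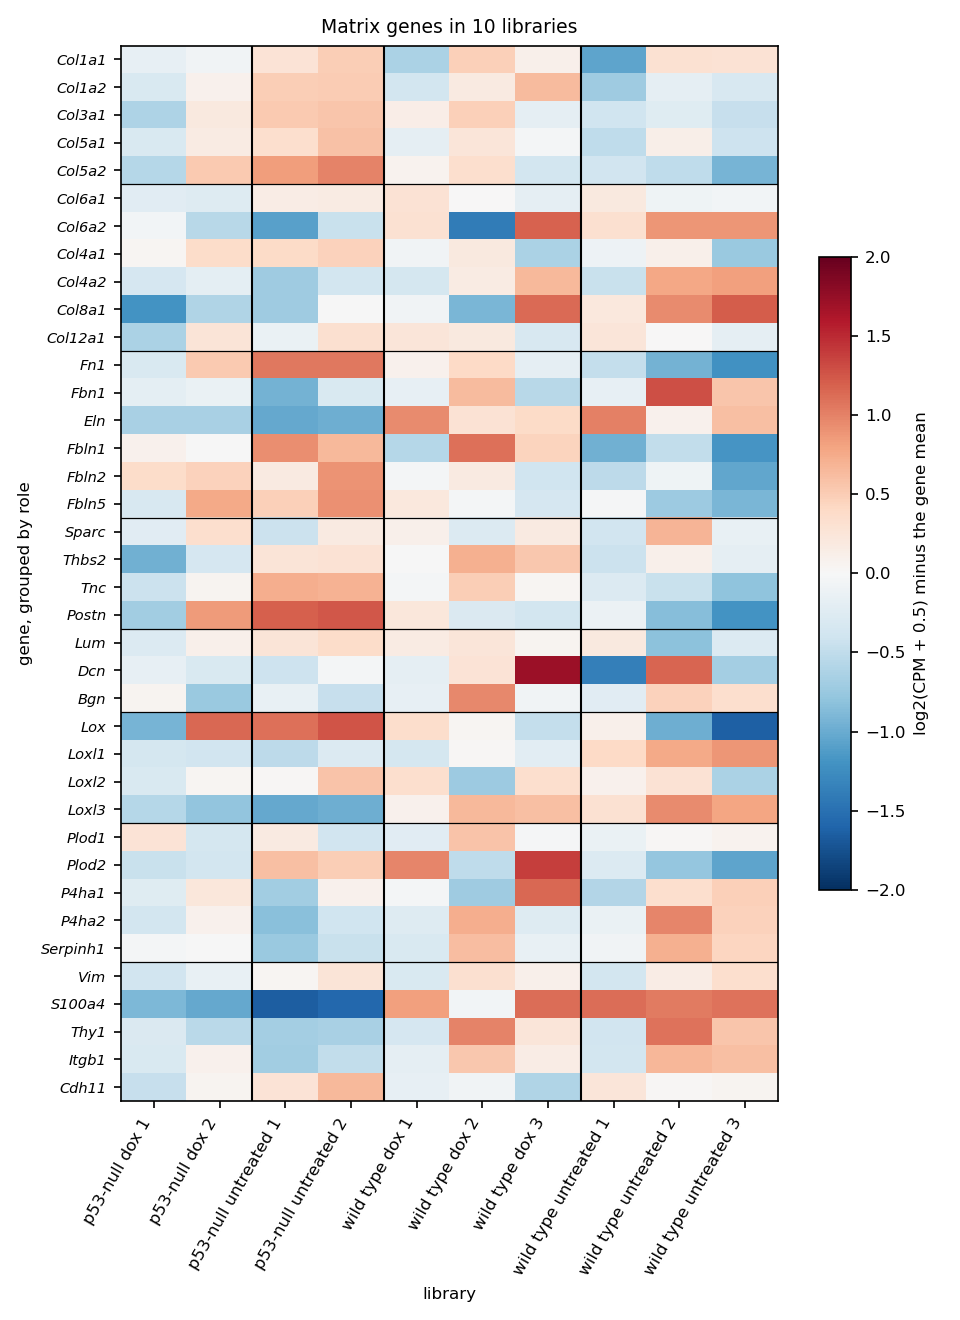
Log2(CPM + 0.5) of each of 38 matrix genes (rows, grouped by role) minus the mean of that gene over 10 libraries (columns, p53-null left of wild type and treated left of untreated), on a colour scale from -2 to 2. The untreated p53-null columns are red for fibrillar collagens, Fn1, Postn and Lox and blue for S100a4, Eln and Loxl3, and the first treated p53-null library is blue where the second is red for Lox and Postn.

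Other matrix genes were taken from lists of the same pathway. Of 18 further collagen chains tested, 6 were higher and 1 lower in untreated p53-null cells, which is 38.9% against the 32.5% called over all tested genes. Col11a1, a minor fibrillar chain abundant in cartilage, had 103 and 112 CPM in untreated p53-null libraries, against 18.5, 4.53 and 3.78 CPM in untreated wild-type libraries. Its groups were far apart, with wild-type library 1 the nearest, and its log2 difference was 3.86 (SE 0.67, adjusted p = 0.0049). Of the cartilage and bone markers, Sox9 and Runx2 were higher too, as given above. Acan overlapped, with 24.9 and 31.9 CPM in untreated p53-null libraries, against 39.9, 5.52 and 13.9 CPM in untreated wild-type libraries. The part of these markers was not tested. Col18a1, the basement membrane collagen from which endostatin is cut, was lower at -1.49 (SE 0.22, adjusted p = 0.0027) in untreated and at -1.69 (SE 0.22, adjusted p = 0.00083) in treated p53-null cells. In wild-type cells it was raised by doxorubicin, with a change of 0.80 (SE 0.20, adjusted p = 0.0256), as was Col27a1 with 1.48 (SE 0.33, adjusted p = 0.0173).

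Of 52 further glycoproteins and proteoglycans tested, 6 were higher and 10 lower in untreated p53-null cells, or 30.8%, against 32.5% of all tested genes. In treated p53-null cells 8 were lower, or 15.4%, against 12.1% called over all tested genes. Ecm1 had 275 and 224 CPM in treated p53-null libraries, against 725, 1254 and 893 CPM in treated wild-type libraries, without overlap and with a difference of -1.91 (SE 0.25, adjusted p = 0.00074). In wild-type cells Ecm1 was raised by doxorubicin, with a change of 1.13 (SE 0.22, adjusted p = 0.0092). Cyr61, a matricellular protein of the CCN family, was lowered there, with 88.8, 87.9 and 83.8 CPM in treated and 253, 232 and 187 CPM in untreated wild-type libraries and a change of -1.35 (SE 0.18, adjusted p = 0.0012). Its relative Wisp2 was lowered as well, with a change of -1.25 (SE 0.24, adjusted p = 0.0084). Fmod, fibromodulin of the collagen fibril surface, was lower in p53-null cells, at -1.003 (SE 0.22, adjusted p = 0.0097) untreated and -1.11 (SE 0.22, adjusted p = 0.0086) treated.

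Of 23 further processing and secretion genes, 3 were higher and 7 lower in untreated p53-null cells, or 43.5%, against 32.5%. Pcolce, an enhancer of procollagen C-propeptide cleavage, had 926 and 868 CPM in untreated p53-null libraries, against 1810, 1938 and 2184 CPM in untreated wild-type libraries, a difference of -1.14 (SE 0.19, adjusted p = 0.0043). P4hb, the disulfide isomerase subunit of prolyl hydroxylase, was lower at -0.90 (SE 0.19, adjusted p = 0.0096). Bmp1, the procollagen C-proteinase, was lower in treated p53-null cells, at -1.38 (SE 0.31, adjusted p = 0.0187). Pcolce and P4hb were thus lower in untreated p53-null cells, where 4 fibrillar chains were higher in the fit reported, though not all of them with every scaling.

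Of 14 integrins and collagen receptors, 3 were higher and 2 lower in untreated p53-null cells, or 35.7%, against 32.5%. In wild-type cells doxorubicin raised Itga6 and the collagen receptor Ddr1 and lowered Itga5 and Itgb3, that is 28.6% of the list, against 12.6% of all tested genes. Itga5, the alpha subunit of the classical fibronectin receptor, had 318, 532 and 341 CPM in treated and 768, 1112 and 1067 CPM in untreated wild-type libraries, a change of -1.33 (SE 0.23, adjusted p = 0.0053). Its ligand gene Fn1 was higher in the same treated libraries in the fit reported. That call missed the threshold with upper quartile scaling, no filter or only the groups compared, as given above. Of 16 TGF-beta signalling genes, 6 were higher and 1 lower in untreated p53-null cells, or 43.8%, against 32.5%. Smad7, an inhibitor of TGF-beta signalling, had 144 and 97.1 CPM in untreated p53-null libraries, against 7.20, 3.89 and 1.67 CPM in untreated wild-type libraries. It was far higher in every p53-null library, with a difference of 4.83 (SE 0.54, adjusted p = 0.00061) untreated and 5.02 (SE 0.54, adjusted p = 0.00022) treated. In wild-type cells doxorubicin lowered Tgfb3, with a change of -0.87 (SE 0.17, adjusted p = 0.0085). In p53-null cells none of these lists had a gene that passed after doxorubicin.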

How the data were processed

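The RNA libraries, 10 in all, were made from poly(A) RNA with a method that reads 3′ ends, per the labels' protocols. DESeq (no version given) and the mouse build mm9 appear in the submitters' processing notes. The sources used here do not give the aligner, strand or annotation, so overlapping genes cannot be separated. The deposited values, on a scale close to log2, behave like variance-stabilised ones and fall on 1 curve of scaled reads, from which whole reads were recovered. At above 250 reads, 99.964% of 22112 distinct values came out whole to within 0.01, and the 8 others stood at 178577 reads or more. Recovered reads are computed values, so no count model was the main test. Scaling used trimmed means of M values, trimming 30% and 5%. Genes reaching 1 CPM in 2 or more libraries were fitted as log2(CPM + 0.5), which understates changes of low genes, with limma 3.58.1 (trend, R 4.3.3) and 1 mean per group over all 10 libraries. Tests were two-sided with Benjamini-Hochberg adjustment over 11090 genes at 0.05. The scripts were tested on simulated data. The 5 comparisons were doxorubicin against untreated in each genotype, the difference of these responses, and p53-null against wild type untreated and treated.

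Same-numbered wild-type libraries had correlated deviations from their group means (0.583, 0.342 and 0.612 over genes), so the numbers were taken to pair them. Differently numbered ones had negative values, from -0.505 to -0.018. Since deviations sum to 0 within a group, these negative values are not separate evidence. In p53-null cells the same-numbered value was 0.385 for both pairs, which with 2 pairs is 1 value and decides nothing. Members, lists and tests were chosen with earlier results of these data known. Named in full are members that passed in any comparison, at most 8 per comparison by adjusted p, and the largest difference that did not pass. Of each other list at most 4 that passed were eligible. Col1a1, Col1a2, Lox and several others were given further values after these were seen. The binding-site list was not used here.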

Additional observations from a re-analysis of the deposited data

Results flagged for a closer look

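Responses to doxorubicin differed between genotypes, by the test of the difference itself, in 3 of 161 tested genes of the matrix set and the related lists, or 1.86%, against 2.26% of all tested genes. Fn1 had a p53-null response minus wild-type response of -1.93, described above with the alternatives that ended its call. Itga6, an integrin subunit of laminin receptors, had 1.84 and 3.19 CPM in treated and 5.42 and 4.57 CPM in untreated p53-null libraries, and 5.13, 5.90 and 5.86 CPM in treated and 1.77, 0.543 and 0.111 CPM in untreated wild-type libraries. Its difference of responses was -3.33 (SE 0.69, limma adjusted p = 0.0383), at low levels in every library. Ddr1, a collagen receptor kinase, had 9.37 and 10.8 CPM in treated and 15.1 and 13.5 CPM in untreated p53-null libraries, and 7.97, 14.0 and 12.0 CPM in treated and 4.01, 2.90 and 3.11 CPM in untreated wild-type libraries. Its difference of responses was -2.08 (SE 0.43, limma adjusted p = 0.0392). With the replicate block the limma adjusted p was 0.0235 for Itga6 and 0.0282 for Ddr1. Under the other alternatives these 2 genes were not examined. The causes were not tested.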

How the results depend on the processing

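Over 28 results on named matrix genes there were 614 results under alternatives, of which 476 stayed on their side of the threshold, 128 were no longer past it, 10 came past it, and 0 changed sign. The untreated genotype calls of S100a4 and Fn1 held under all 22 alternatives. The alternatives below were chosen with earlier results known, and leaving out both libraries of a number was added after the values were seen. Causes of the changes were not tested.

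For untreated p53-null against wild type, higher matrix genes numbered 11 and lower ones 5. The higher count was 6 with upper quartile scaling and 7 with no filter on low values. The lower count was 8 with median-of-ratios scaling, with the deposited values or with only the groups compared, and 10 with upper quartile scaling. Leaving out single libraries gave 1 to 12 higher, 2 to 10 lower and 424 to 4148 of all genes (3602 in the fit reported). The replicate block gave 12 lower and 5460 genes. Without both wild-type libraries numbered 1 there were 7 higher and 10 lower, and without both p53-null libraries numbered 2 there were 1 higher, 1 lower and 208 genes.

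For treated p53-null against wild type, 4 matrix genes and 1342 of all genes were called. Only the groups compared gave 1 and 649, the replicate block 3012 genes, single libraries left out 0 to 4 and 455 to 1485, and both p53-null libraries numbered 2 left out 0 and 300. For wild-type doxorubicin, 1 matrix gene was higher, 1 lower and 1399 genes called. Upper quartile scaling and no filter gave 0 higher, only the groups compared gave 0 higher, 0 lower and 733 genes, and the replicate block 4 higher and 2573 genes. Single libraries left out gave 0 to 1 in each direction and 712 to 1452 genes. Without both p53-null libraries numbered 2 there were 0 higher and 758 genes.

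For the difference of responses, 1 matrix gene was lower and 251 genes were called. Library size alone, a pseudocount of 2 CPM and limma-voom gave 2 matrix genes, the deposited values and no filter 0, and upper quartile scaling 0 and 118 genes. The replicate block gave 9 and 1044, single libraries left out 0 to 2 and 33 to 300, both wild-type libraries numbered 1 left out 0, and both p53-null libraries numbered 2 left out 0 and 0. For p53-null doxorubicin no matrix gene was called in any of them, and all genes called numbered 0 to 1 without single libraries and 2 with no filter. The fit to only the groups compared was not run for the difference of responses, which uses every group.

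The replicate block ended no call of a matrix gene. Scaling by library size alone moved the median of all genes by 0.36 untreated and 0.23 treated between genotypes and by -0.13 in the difference of responses, and the higher share of calls to 86.6%, 68.6% and 8.97%, against 60.8%, 46.6% and 23.9%. Median-of-ratios scaling moved the untreated median by -0.10, and upper quartile scaling took the higher share in the difference of responses to 5.08%. Replicate block calls were 38.2% higher there. Depth differed with genotype, and thinning all libraries to the smallest one changed none of these counts by more than 1.5 times.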

Other observations

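The 38 matrix genes had a median within-group SD of 0.397 on the log2 scale, against 0.377 over all tested genes. Col6a1 varied least, at 0.164, with 58.9 to 78.6 CPM in p53-null and 61.9 to 85.9 CPM in wild-type libraries. Dcn, the collagen-binding proteoglycan decorin, varied most, at 0.954. It had 6.07 and 5.50 CPM in treated and 5.05 and 6.72 CPM in untreated p53-null libraries, and 6.04, 8.48 and 23.7 CPM in treated and 2.36, 16.1 and 4.11 CPM in untreated wild-type libraries. High and low values fell in both wild-type groups, and no difference in Dcn passed. Col6a2 was at 323, 99.3 and 593 CPM in treated wild-type libraries, with library 2 far below the other pair, while the 3 untreated ones spanned 326 to 484 CPM.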
